A study of Mus musculus with 15 samples.

Results

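The TGFb and BMP signalling components examined here are 39 genes: 8 ligands, 5 genes of latency or extracellular antagonism, 12 receptors, coreceptors and receptor-bound proteins, 7 Smads, and 7 intracellular regulators and targets. They were chosen by symbol, as the probes that the platform annotation assigns to exactly 1 of those symbols. Probes were found for 37 of the 39 genes (40 of 17195 probes, 3 genes having 2 probes each), and 31 were measured on 3 or more arrays per group and tested, among 13273 features. Smad7 and Smurf2, an inhibitory Smad and a ubiquitin ligase, had no probe assigned and were not analysed here. Alveolar macrophages, phagocytes that live in the air sacs, were taken from mice and their RNA hybridised to 15 2-colour arrays, each against a common reference labelled as a macrophage reference. There were 3 groups of 5 arrays: wild type (labelled b6+/+Dox), mice deficient in the integrin beta6 subunit (b6-/-Dox, called beta6 null), and beta6 null mice reconstituted with TGFb1 (b6-/-TGFb+/+Dox, called beta6 null with TGFb1). Doxycycline, an antibiotic that can turn inducible transgenes on, was given in all groups, the wild type included. The form of TGFb1 that was reconstituted, the promoter and cell type behind it, and the strain and age of the mice are not given in the sources used here. No group of wild type mice with TGFb1 is among the samples, so a return to the wild type level and an effect of added TGFb1 cannot be told apart.

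TGFb is secreted bound to its own propeptide, often tethered to a latent TGFb-binding protein, and is silent until released. The integrin alphavbeta6 on lung epithelium is one of its activators, which is the link between the disrupted gene and the pathway. Active TGFb, activins and BMPs bind type II receptors, which phosphorylate type I receptors. TGFb and activin receptors then act on Smad2 and Smad3, and BMP receptors on Smad1 and Smad5. These join Smad4, enter the nucleus and switch on targets, among them genes that damp the pathway itself, such as Skil. In alveolar macrophages TGFb is known as a signal that the cells need for their development and upkeep.

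All values are log2 ratios centred on each array's median, read with the sample on top. This direction is likely, not certain. It rests on which channel held the reference and on Mmp12, macrophage elastase, which is known to be raised in these mice and stood at 4.57 ± 0.82 (SD, n = 5) in beta6 null against 0.26 ± 0.22 (n = 4) in wild type. Neither the base of the logarithm nor the direction is stated with the values, and an inverted ratio would turn every sign. The disrupted gene, Itgb6, is a gene of epithelium. Its 2 probes averaged -0.21 to 0.42 on 4 wild type arrays, -0.12 to 0.99 on 5 beta6 null arrays and -1.13 to 1.19 on 5 arrays with TGFb1, and where they lie relative to the deletion is not known, so they check no label. The arrays held 11615 to 16483 values each, with SDs of 0.841 to 2.01. The fewest and widest-spread values were those of wild type replicate 2 and of the first beta6 null replicate. Xist, a noncoding RNA that silences an X chromosome in female cells, moved with the groups: it read -4.14 to -2.37 in wild type, -2.46 to 0.88 on the beta6 null arrays, and -3.48 to -2.27 with TGFb1. Dendritic cell and monocyte markers (7 of 9 tested) lay highest in beta6 null, above all wild type arrays and overlapping those with TGFb1, with a mean log2 ratio of -1.17 to 0.32 per array in wild type, 0.59 to 1.97 on the beta6 null arrays, and -0.10 to 0.59 with TGFb1. Alveolar macrophage markers (10 of 14 tested) read -2.21 to -0.74, -2.03 to -1.85 and -1.33 to -0.78 in the same order, which as ratios to a macrophage reference give no presence or absence. Every array with TGFb1 lay above every beta6 null array there. In beta6 null 8 of the 10 lay below wild type. With TGFb1 all 10 lay above beta6 null, 6 at an unadjusted p under 0.05 by limma (60%, against 15% of all features). Of the lung epithelium markers (9 of 12 tested, at -1.37 to -0.54, -1.64 to -0.75 and -0.98 to -0.50), Epcam and Krt19 fell in beta6 null (-2.34 and -2.01) and rose with TGFb1 (1.98 and 2.37), and Sftpc rose in beta6 null (2.18). Neutrophil markers (7 of 9 tested) overlapped between the groups, at -0.57 to 0.08, -0.52 to 0.97 and -1.40 to 0.09 in the same order. Only S100a8 of these passed, rising in beta6 null, where 3 of the 7 lay below wild type. With TGFb1 against beta6 null Pparg, of the alveolar macrophage markers, rose and Itgae, of the dendritic cell markers, fell. With the level of Xist added as a term, no feature passed in any of the 3 comparisons. Xist itself ran with the beta6 null group (means of -3.10, -0.40 and -3.07 in the same order). A fit with Xist therefore cannot separate it from the group, and calls lost in that fit, here and below, decide nothing. The part of the cell type markers in the results below was not tested. In these bulk samples, fewer cells of a type and less RNA per cell cannot be told apart.

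In beta6 null macrophages 3 components fell against wild type and none rose: Skil, Klf10 and Eng. Those are 3 of the 31 tested (9.68%), where 0.949% of all features passed (adjusted p under 0.05 by limma with Benjamini-Hochberg adjustment over all 13273 features), 0.362% as higher and 0.588% as lower. With TGFb1, 2 components, Klf10 and Skil, rose against beta6 null (6.45% of the 31, against 0.708% of all features, 0.58% as higher and 0.128% as lower). Between beta6 null with TGFb1 and wild type no component and none of all features (0%) passed by limma, with 5 of the 31 components (16.1%) and 833 features (6.28%) at an unadjusted p under 0.05. In beta6 null against wild type 10 components were under it (32.3%, against 11.5% of all features). With TGFb1 against beta6 null 8 were (25.8%, against 15%). The median difference of the components was -0.14 in beta6 null against wild type, beside -0.047 over all features. With TGFb1 against beta6 null it was -0.14, beside 0.12 over all features. The calls stood in the intracellular regulators (6 tested) and in 1 coreceptor, while the tested ligands (7), latency proteins and antagonists (4) and Smads (6) held none. With 0.949% and 0.708% of all features called, classes this small would mostly hold none, so their lack of calls says little about them. The first pair of comparisons shares the beta6 null arrays, so a fall in one and a rise in the other are not separate observations.

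**Figure D1:**
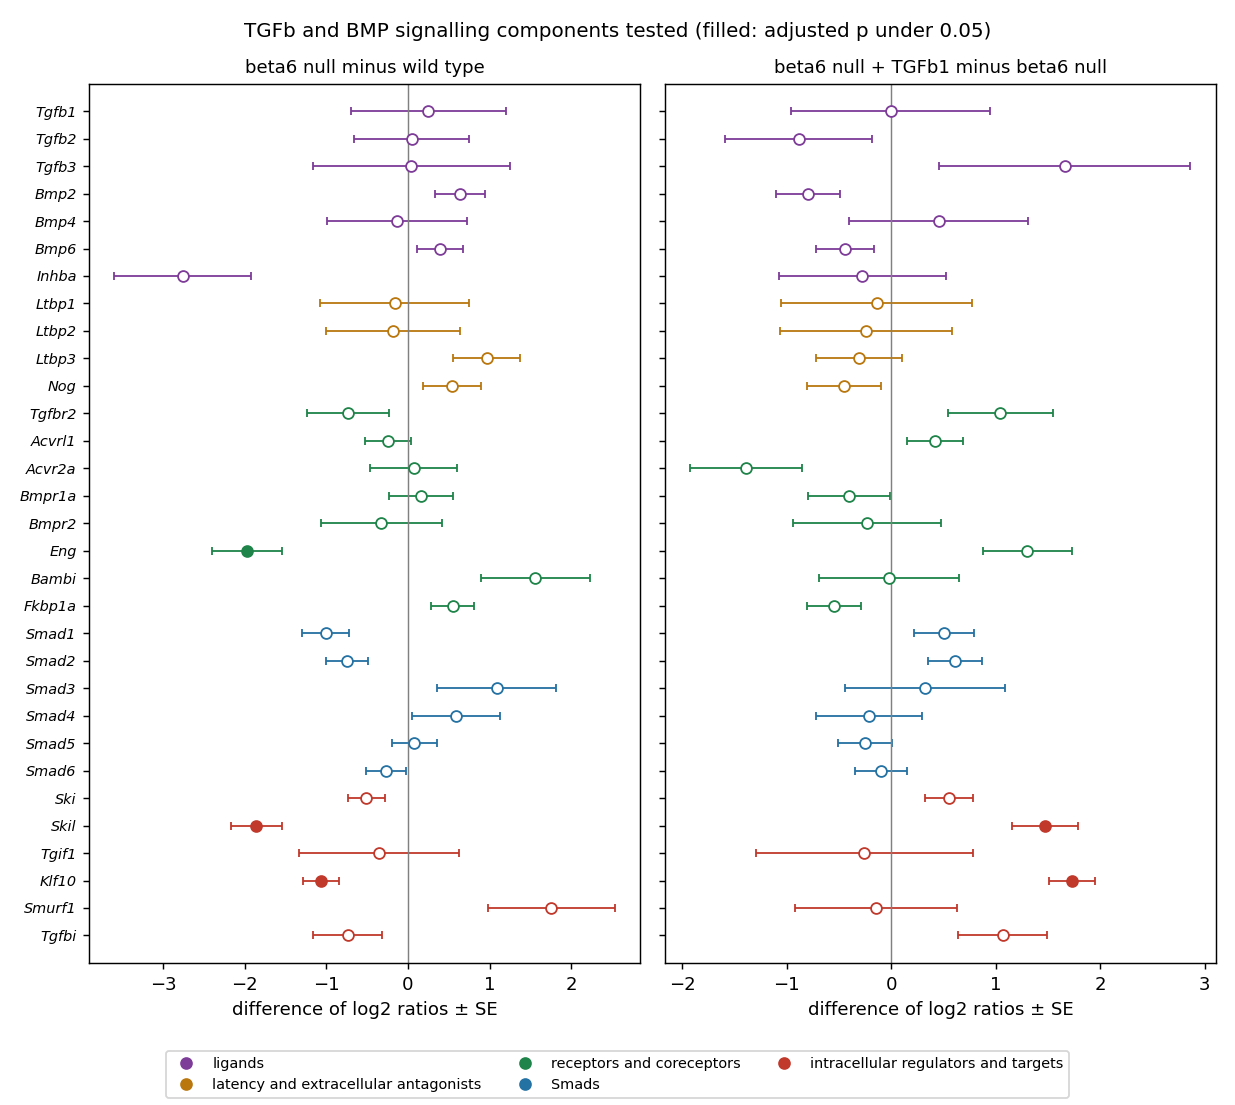
Differences of log2 ratios (horizontal axis, ± SE of the limma fit) for the 31 tested components, in beta6 null minus wild type on the left and beta6 null with TGFb1 minus beta6 null on the right, coloured by class. Filled points, Skil, Klf10 and Eng on the left and Skil and Klf10 on the right, passed at an adjusted p under 0.05, and the other points did not.

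Of the 3 components that changed, the sequence tables used here hold a promoter window of Eng, from 250 bases before to 50 after the annotated start, and it is shown because Eng is one of the members the results turn on. That of Smad6, an inhibitory Smad, is set beside it because, of the 33 component windows searched, it was the 1 with the Smad palindrome. It was chosen after the search. The windows come from RefSeq on the build GRCm38.p6, 5′ to 3′ on the strand of the gene: Eng at chr2:32646345-32646644 on the plus strand and Smad6 at chr9:64022010-64022309 on the minus strand. Capitals mark matches, on either strand, to GTCTAGAC (the Smad palindrome), CAGAC (the core of the CAGA box, which Smad3 and Smad4 are known to bind) and GGCGCC (a GC-rich motif that BMP Smads are known to bind).
Eng: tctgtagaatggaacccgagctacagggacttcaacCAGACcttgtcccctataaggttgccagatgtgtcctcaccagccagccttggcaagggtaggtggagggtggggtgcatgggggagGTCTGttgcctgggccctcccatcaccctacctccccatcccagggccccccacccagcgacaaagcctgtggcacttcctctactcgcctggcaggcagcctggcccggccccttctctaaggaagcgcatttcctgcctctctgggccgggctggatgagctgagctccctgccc
Smad6: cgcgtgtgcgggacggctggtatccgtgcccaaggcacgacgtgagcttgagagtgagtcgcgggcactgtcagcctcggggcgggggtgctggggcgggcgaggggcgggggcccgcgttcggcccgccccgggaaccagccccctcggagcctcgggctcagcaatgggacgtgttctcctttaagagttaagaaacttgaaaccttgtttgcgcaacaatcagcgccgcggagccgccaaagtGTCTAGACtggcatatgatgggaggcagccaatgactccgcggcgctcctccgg
The Eng window holds CAGAC 2 times, beginning 214 and 127 bases before the start, the second on the opposite strand, and neither of the other motifs. The Smad6 window holds GTCTAGAC once, beginning 4 bases before the start and so reaching over it. RefSeq windows were matched for 25 of the 39 components (33 windows). The other components, Skil, Klf10, Smad7 and Smurf2 among them, had no window and were not searched. CAGAC was in 18 of those 33 and in 49.6% of 32851 windows of all genes, GGCGCC in 8 and in 11.9%, and GTCTAGAC in 1 and in 0.213%. The motifs do not overlap in either printed window, and a match is a string of letters, not a bound site. Smad6 itself read 0.44 ± 0.44 (SD, n = 5) in wild type, 0.18 ± 0.10 on the beta6 null arrays, and 0.08 ± 0.21 with TGFb1, and did not pass in any comparison (adjusted p = 0.704, 0.895 and 0.825 by limma).

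Skil encodes SnoN, a corepressor of Smads that TGFb first degrades and then induces as a brake. Its level, averaged over 2 probes, was 0.15, 0.23, 0.81, 0.25 and 0.70 on the wild type arrays, -2.52, -1.52, -1.39, -0.85 and -0.87 on the beta6 null arrays, and -0.014, 0.12, 0.33, 0.047 and -0.26 with TGFb1. All 5 beta6 null arrays lay below all arrays of both other groups, and the wild type and TGFb1 arrays overlapped. The fall in beta6 null was -1.86 (SE 0.31, adjusted p = 0.00819 by limma), a level 3.62-fold lower than in wild type. With TGFb1 the level rose by 1.47 (SE 0.31, adjusted p = 0.0438 by limma), or 2.78-fold, and its difference from wild type was -0.38 (SE 0.31, adjusted p = 0.848). The probes of Skil did not weigh alike. The second, with a value on every array, read 0.14 to 1.10 in wild type, -2.11 to -0.98 on the beta6 null arrays, and -0.37 to 0.63 with TGFb1, and by itself passed both ways (-2.04, adjusted p = 0.00184, and 1.66, adjusted p = 0.0180 by limma). The first was missing on beta6 null replicates 2 and 3 and went the same way without passing (-1.65, adjusted p = 0.177, and 1.26, adjusted p = 0.242). The fall was called in all 15 fits that left out 1 array, and not with Xist in the fit as covariate (-1.94, adjusted p = 0.360) or with the 10 arrays of these groups alone (-1.86, adjusted p = 0.0868). The call of the rise was close to the threshold: it was kept in 4 of the 15 fits (without wild type replicate 2 or beta6 null replicate 1, 4 or 5), and the adjusted p reached 0.141 in the others. Over all 15 fits its difference was 1.20 to 1.62.

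Klf10, also known as TGFb-inducible early gene, is a zinc finger factor that TGFb switches on within the first wave of targets. It read -1.03, -1.19, -0.98, -1.15 and -1.07 in wild type, -2.02, -2.56, -2.16, -2.17 and -1.82 on the beta6 null arrays, and -0.17, -0.38, -0.34, -0.82 and -0.39 with TGFb1. The 3 groups were fully separate: every beta6 null array lay lowest, every wild type array in between, and every array with TGFb1 highest. Klf10 fell in beta6 null by 1.07 on the log2 scale (SE 0.22, adjusted p = 0.0348 by limma), or 2.09-fold. With TGFb1 it rose by 1.73 (SE 0.22, adjusted p = 0.00213 by limma), or 3.31-fold. The level with TGFb1 was 0.66 above wild type (SE 0.22), which did not pass over all features (adjusted p = 0.757 by limma, and 0.333 to 0.935 over its alternatives), while no array of the pair of groups overlapped, as was so for 2.88% of all features. The rise with TGFb1 was called in all 15 fits that left out 1 array, and was 1.34 under quantile normalization (adjusted p = 0.0988), 1.33 with arrays scaled to equal spread (adjusted p = 0.104) and 1.74 with Xist in the fit as covariate (adjusted p = 0.264). The fall in beta6 null was called in 6 of those 15 fits, without wild type replicate 2, beta6 null replicate 1 or 5, or TGFb1 replicate 1, 4 or 5, with an adjusted p of up to 0.0931 in the others. It was -0.68 under quantile normalization and with equal spread (adjusted p = 0.472 and 0.478), over 1.5 times smaller, and -0.98 with the suffix of the array titles as a block (adjusted p = 0.104).

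Ski, the relative of Skil and a corepressor of the same Smads, was read by 2 probes and moved less. It averaged -0.08 ± 0.32 (SD, n = 5) in wild type, -0.59 ± 0.21 on the beta6 null arrays, and -0.04 ± 0.17 with TGFb1. The arrays with TGFb1, at -0.27 to 0.19, all lay above the beta6 null arrays, at -0.89 to -0.30, and neither group was separate from wild type. Its differences, -0.51 (SE 0.23, adjusted p = 0.409) in beta6 null and 0.55 (SE 0.23, adjusted p = 0.272) with TGFb1, did not pass by limma. Each probe of Ski gave close to the same differences, -0.46 and -0.55 in beta6 null and 0.55 and 0.56 with TGFb1.

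Tgfbi, a secreted matrix protein named for its induction by TGFb, read -1.78 ± 0.75 (SD, n = 5) in wild type, -2.52 ± 0.84 on the beta6 null arrays, and -1.45 ± 0.31 with TGFb1. The groups overlapped, and neither the difference in beta6 null (-0.74, SE 0.42, adjusted p = 0.521) nor that with TGFb1 (1.07, SE 0.42, adjusted p = 0.249) passed by limma. Tgif1, a homeodomain corepressor of Smads, spread from -1.34 to 4.15 over the arrays, and its group means of 1.96, 1.60 and 1.34 differed by less than the SDs of 0.80 to 2.28. Smurf1, a ubiquitin ligase of Smads and their receptors, read -5.35 to -0.22 in wild type, -0.63 to 0.65 on 4 beta6 null arrays and -0.68 to -0.28 with TGFb1. Wild type was the low and the wide group there, and its difference from beta6 null of 1.75 (SE 0.77, adjusted p = 0.399 by limma) did not pass.

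**Figure D2:**
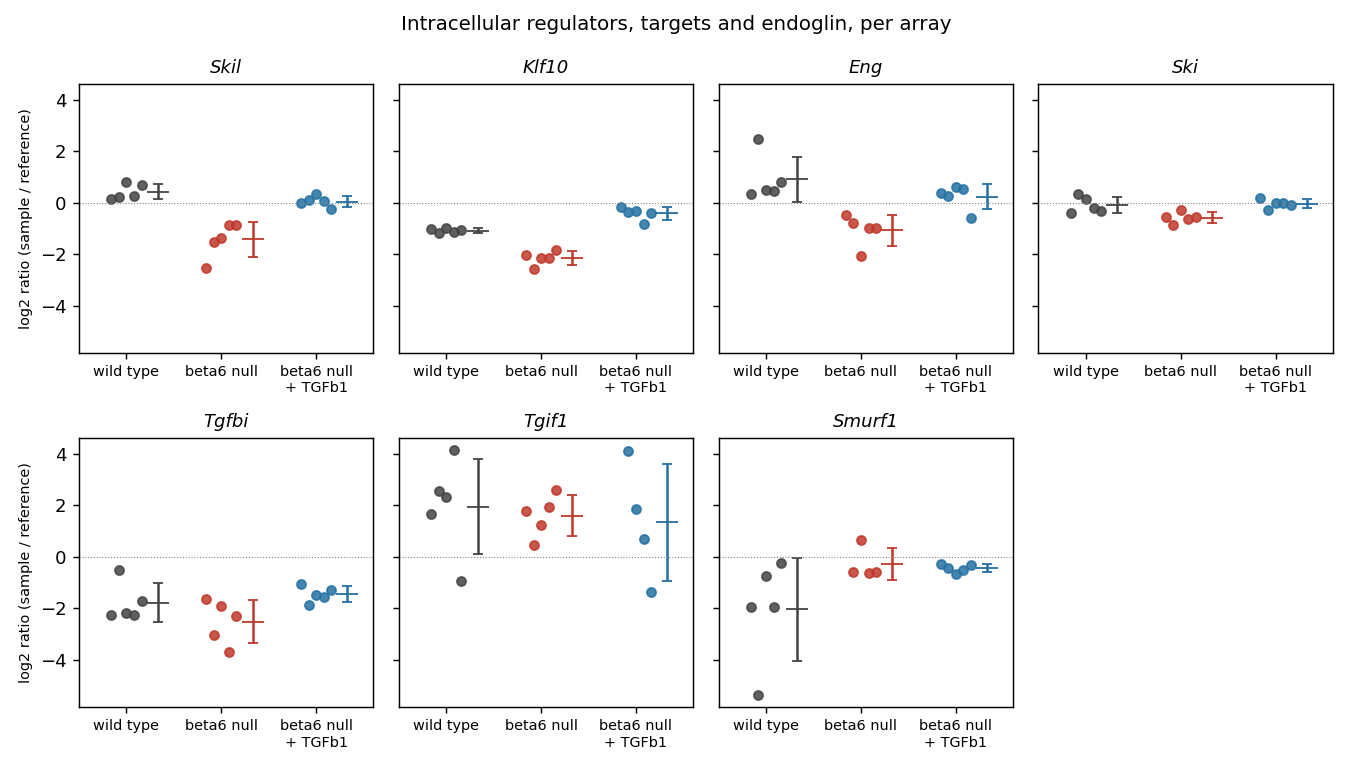
Log2 ratio of sample over reference (vertical axis, 1 scale for all panels) of the 6 tested intracellular regulators and targets and of Eng, 1 point per array and mean ± SD beside each group of up to 5 arrays. The beta6 null arrays of Skil and Klf10 lie below all arrays of both other groups, and those of Eng below all wild type arrays, while Tgif1 and Smurf1 spread widely.

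Eng encodes endoglin, a coreceptor of TGFb and BMP9 best known from endothelium and also made by activated macrophages. It read 0.32, 2.46, 0.48, 0.45 and 0.82 in wild type, -0.49, -0.81, -2.07, -0.98 and -0.99 on the beta6 null arrays, and 0.39, 0.25, 0.60, 0.54 and -0.60 with TGFb1. All beta6 null arrays lay below all wild type arrays, and with TGFb1 4 of 5 arrays lay above the beta6 null arrays and 1, replicate 5, among them. The fall in beta6 null was -1.97 (SE 0.43, adjusted p = 0.0409 by limma), or 3.93-fold. The difference with TGFb1, 1.30 (SE 0.43, adjusted p = 0.165), did not pass, and the level with TGFb1 was 0.67 below wild type (SE 0.43, adjusted p = 0.820 by limma). Wild type replicate 2 stood far above the other wild type arrays. Without it the fall was -1.58 and was called, and the rise with TGFb1 passed too (1.30, adjusted p = 0.0464 by limma). The fall was also called without beta6 null replicate 1 and without TGFb1 replicate 5, and in none of the other 12 fits that left out 1 array, with an adjusted p of up to 0.0951 and differences from -2.12. With the Xist level as a covariate it was -1.65 (adjusted p = 0.669). Fibroblast and endothelium markers, of which 5 of 12 were tested, had a mean log2 ratio of -0.37 to 0.78 per array in wild type, -0.71 to 0.17 on the beta6 null arrays, and -0.064 to 0.20 with TGFb1, which overlap. None of those 5 passed in any comparison. Only Pecam1 among them is a marker of endothelium, so the list says little about endothelial cells. Pecam1 differed by -0.74 in beta6 null (SE 0.76, adjusted p = 0.735 by limma). With TGFb1 against beta6 null it differed by 0.97 (SE 0.72, adjusted p = 0.560 by limma). The part of endothelial cells in the level of Eng was not tested.

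None of the receptors proper that could be tested passed. Tgfbr2, the type II receptor of TGFb, averaged -0.36 ± 1.30 (SD, n = 5) in wild type, -1.09 ± 0.36 on the beta6 null arrays, and -0.05 ± 0.43 with TGFb1. Every array with TGFb1 lay above every beta6 null array, but the difference of 1.05 (SE 0.50, adjusted p = 0.343 by limma) did not pass. The average mixes 2 probes, of which the first had values on 6 of 15 arrays and read higher, up to 2.34 in wild type. The second, measured on all 15, gave -0.43 in beta6 null and 0.93 with TGFb1 (adjusted p = 0.676 and 0.232), with the TGFb1 arrays at -1.13 to -0.009 and the beta6 null arrays at -1.80 to -0.85, which overlap. Acvr2a, a type II receptor of activins, read -0.50 to 0.57 on 4 wild type arrays, -1.03 to 0.99 on 4 beta6 null arrays and -2.49 to -0.27 on 4 arrays with TGFb1. It was lowest with TGFb1, with a difference from beta6 null of -1.39 (SE 0.53, adjusted p = 0.244) and from wild type of -1.32 (SE 0.53, adjusted p = 0.787), and neither passed by limma. Bambi, a decoy receptor without a kinase, read -3.17 to 0.36 in wild type, -1.15 to 0.80 on the beta6 null arrays, and -1.46 to 1.41 with TGFb1. Its difference of 1.56 in beta6 null (SE 0.67, adjusted p = 0.377 by limma) went the opposite way to those of Skil and Klf10 and did not pass.

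**Figure D3:**
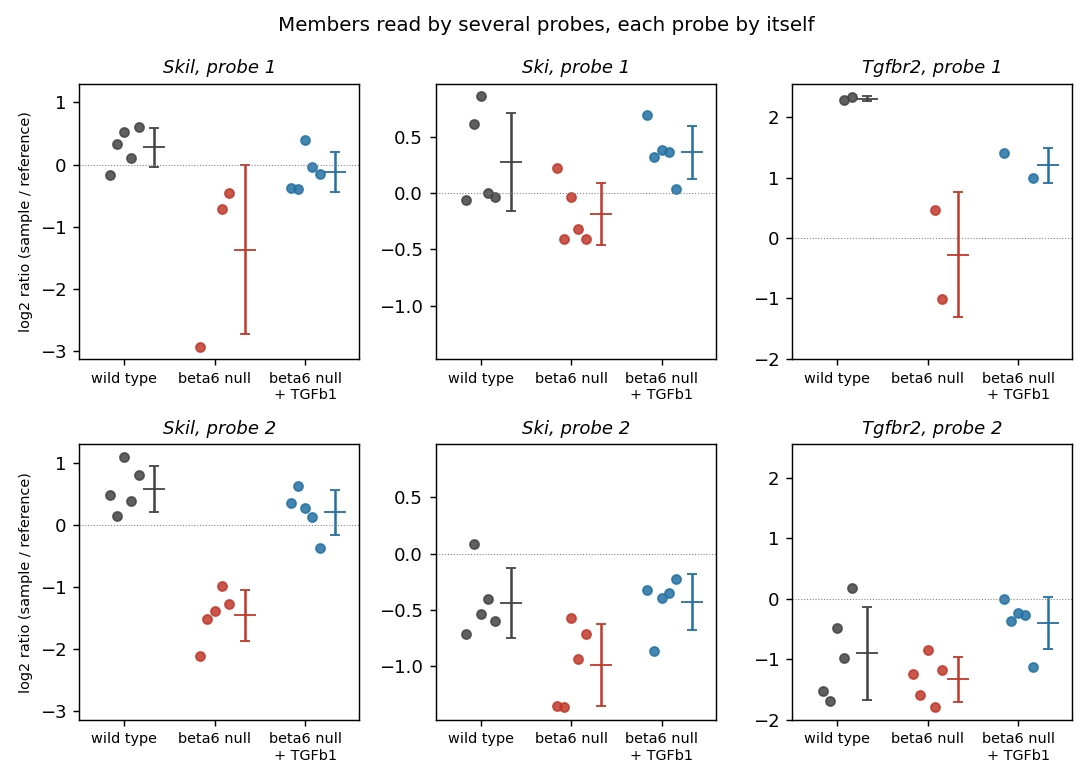
Log2 ratio of sample over reference (vertical axis, 1 scale per gene) of Skil, Ski and Tgfbr2 for each of their 2 probes, 1 point per array with mean ± SD beside each group. The probes of Skil and of Ski order the groups alike, while the first probe of Tgfbr2 has values on 6 arrays and reads above the second.

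Fkbp1a, a protein that binds type I receptors and keeps them quiet, read 0.18 ± 0.16 (SD, n = 5) in wild type, 0.73 ± 0.48 on the beta6 null arrays, and 0.18 ± 0.25 with TGFb1. Its difference of 0.55 in beta6 null (SE 0.26, adjusted p = 0.442) and of -0.55 with TGFb1 (adjusted p = 0.341) did not pass by limma. Acvrl1, a type I receptor that partners endoglin, read -0.30 ± 0.26 (n = 4), -0.55 ± 0.34 (n = 5) and -0.12 ± 0.39 (n = 5) in the same order, and no difference passed. The BMP receptors Bmpr1a and Bmpr2 had differences between -0.56 and 0.16 over the 3 comparisons, with SEs of 0.39 to 0.75. The other receptors could not be tested for want of values. Tgfbr1, the type I receptor of TGFb, had values on 4, 2 and 5 arrays of wild type, beta6 null and TGFb1, with means of -0.41, -2.15 and 0.56. The coreceptor Tgfbr3 had them on 2, 2 and 3, Acvr1b on 5, 5 and 2, and Acvr2b on 5, 2 and 3, and each spread over more than 1 log2 unit within a group.

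The Smads gave no call, but 2 of them lay lower on every beta6 null array measured than on any wild type array. Smad1, a Smad of BMP receptors, read 0.81, 0.055, -0.058, 0.48 and 0.099 in wild type, -1.15, -0.85, -0.69 and -0.23 on 4 beta6 null arrays, and -0.32, -0.16, 0.17, -0.60 and -0.19 with TGFb1. Its beta6 null arrays all lay below the wild type arrays and overlapped those with TGFb1, and its difference of -1.01 (SE 0.29, adjusted p = 0.147 by limma) did not pass. Smad2, a Smad of TGFb and activin receptors, read -0.82, 0.20, -0.51, -0.40 and -0.35 in wild type, -1.42, -1.28, -0.94 and -0.83 on 4 beta6 null arrays, and -0.56, -0.54, -0.54, -0.55 and -0.36 with TGFb1. Its 4 beta6 null arrays lay below all arrays of both other groups, narrowly so for wild type replicate 1, and its differences of -0.74 (SE 0.26, adjusted p = 0.264) and 0.61 (SE 0.26, adjusted p = 0.292) did not pass by limma. In both genes beta6 null replicate 1, one of the arrays with the widest values, had no value. Smad3, the other Smad of TGFb receptors, read -0.18 ± 1.09 (SD, n = 5), 0.90 ± 1.37 (n = 4) and 1.23 ± 1.07 (n = 4), so it lay highest with TGFb1, within its spread (1.41 above wild type, SE 0.72, adjusted p = 0.817 by limma). Smad4, the shared partner, and Smad5, of BMP receptors, had means of 0.0083, 0.59 and 0.38 and of 0.51, 0.58 and 0.34, and no difference of either passed.

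**Figure D4:**
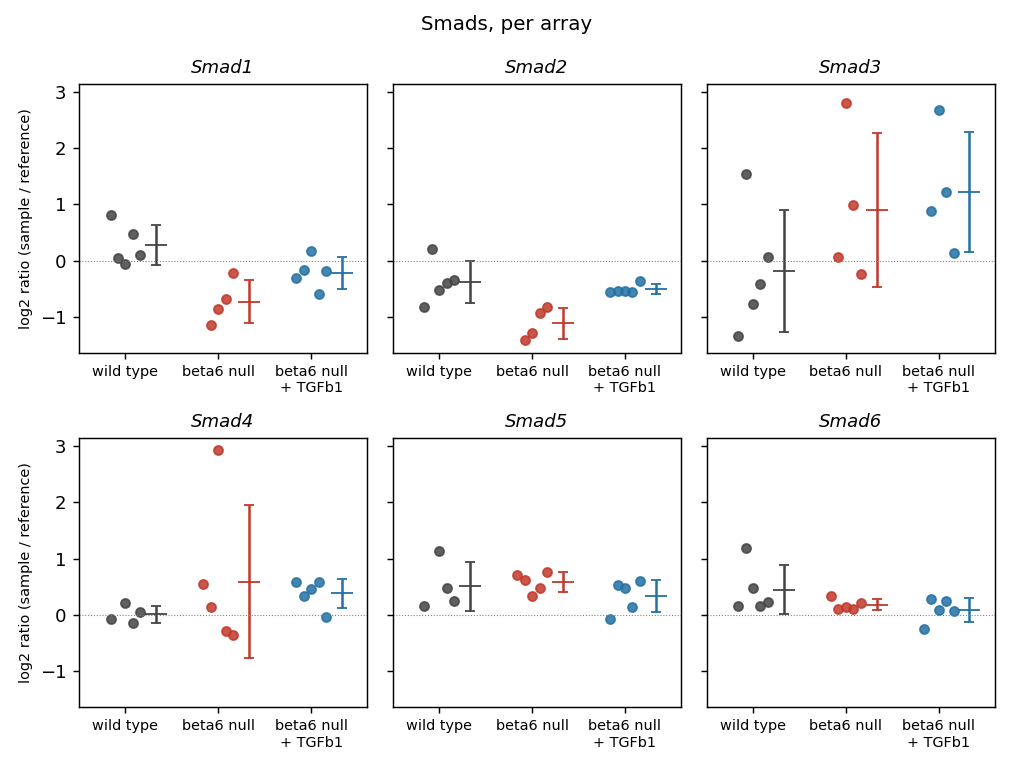
Log2 ratio of sample over reference (vertical axis, 1 scale) of the 6 Smads with a probe, 1 point per array and mean ± SD beside each group of up to 5 arrays. The 4 beta6 null arrays with a value for Smad1 and for Smad2 lie below the wild type arrays, and those of Smad3 and Smad4 spread over 3 log2 units or more.

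Counted without a threshold on p, 6 of the 31 tested components did not overlap between beta6 null and wild type, all lower in beta6 null (19.4%, against 5.12% of all features, 3.06% as lower and 2.06% as higher): Skil, Klf10, Eng, Smad1, Smad2 and Inhba. Between beta6 null with TGFb1 and beta6 null, 5 did not overlap, all higher with TGFb1 (16.1%, against 8.26% of all features, 6.36% as higher and 1.91% as lower): Skil, Klf10, Ski, Smad2 and Tgfbr2. Between beta6 null with TGFb1 and wild type 2 did not overlap, Klf10, higher, and Inhba, lower (6.45%, against 2.88% of all features, 1.79% as higher and 1.09% as lower). Inhba and the Smads had fewer arrays in beta6 null, where separation comes more easily. Tgfbr2 was separate only as the average of its 2 probes, and its probe measured on every array overlapped.

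The ligands gave no call. Tgfb1, the ligand reconstituted by design, read -0.056, -4.84, 0.068, 0.048 and 0.12 in wild type, -1.96, 1.04, -2.76, 0.092 and 0.18 on the beta6 null arrays, and -2.21, -0.14, -0.27, -0.22 and -0.60 with TGFb1. The array probe thus gave no higher level in the TGFb1 group (difference from beta6 null -0.005, SE 0.95, adjusted p = 0.998 by limma), and whether it reads the reconstituted form is not known. Wild type replicate 2 stood far below the other 4 wild type arrays, which lay close together. Inhba, the beta A chain of activins, had the largest differences of group means from wild type among the tested members: it read 2.41, 2.99, 1.54 and 3.29 on 4 wild type arrays, -0.47, -1.23 and 1.10 on 3 beta6 null arrays, and -2.03, 0.11, 1.25, -1.95 and 0.23 with TGFb1. No wild type array overlapped with either other group, all lying higher. The differences of -2.76 in beta6 null (SE 0.84, adjusted p = 0.202) and -3.03 with TGFb1 (SE 0.74, adjusted p = 0.651), both against wild type, did not pass over all features by limma. Its difference with TGFb1 against beta6 null was -0.28 (SE 0.80, adjusted p = 0.908 by limma).

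Bmp2, a bone morphogenetic protein, read 0.75, 1.07, 0.29, 0.44 and 0.23 in wild type, 1.55, 1.65, 0.98, 0.89 and 0.87 on the beta6 null arrays, and -0.52, 0.39, 0.93, 0.62 and 0.55 with TGFb1. It lay highest in beta6 null, with overlap, and its differences of 0.63 (SE 0.31, adjusted p = 0.449) and, with TGFb1 against beta6 null, -0.79 (SE 0.31, adjusted p = 0.237) did not pass by limma. Bmp6, known as an iron-sensing ligand of liver endothelium, followed the same order at 0.72 ± 0.42, 1.12 ± 0.46 and 0.67 ± 0.18 (SD, n = 5 each) and did not pass (adjusted p = 0.603, 0.494 and 0.987 by limma). Tgfb2 read 1.25 ± 1.65, 1.30 ± 0.85 and 0.42 ± 0.91 (n = 5 each), and Tgfb3 -0.78 ± 2.01 (n = 4), -0.74 ± 2.26 (n = 3) and 0.92 ± 1.09 (n = 4). The largest difference of these other TGFb ligands, 1.70 for Tgfb3 between TGFb1 and wild type, had an SE of 1.12. Bmp4 had means of -0.12, -0.26 and 0.20 on 4 arrays a group with SDs of 0.95 to 1.61. Bmp7 had values on 2, 4 and 2 arrays, from -2.74 to 0.80, and was not tested.

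**Figure D5:**
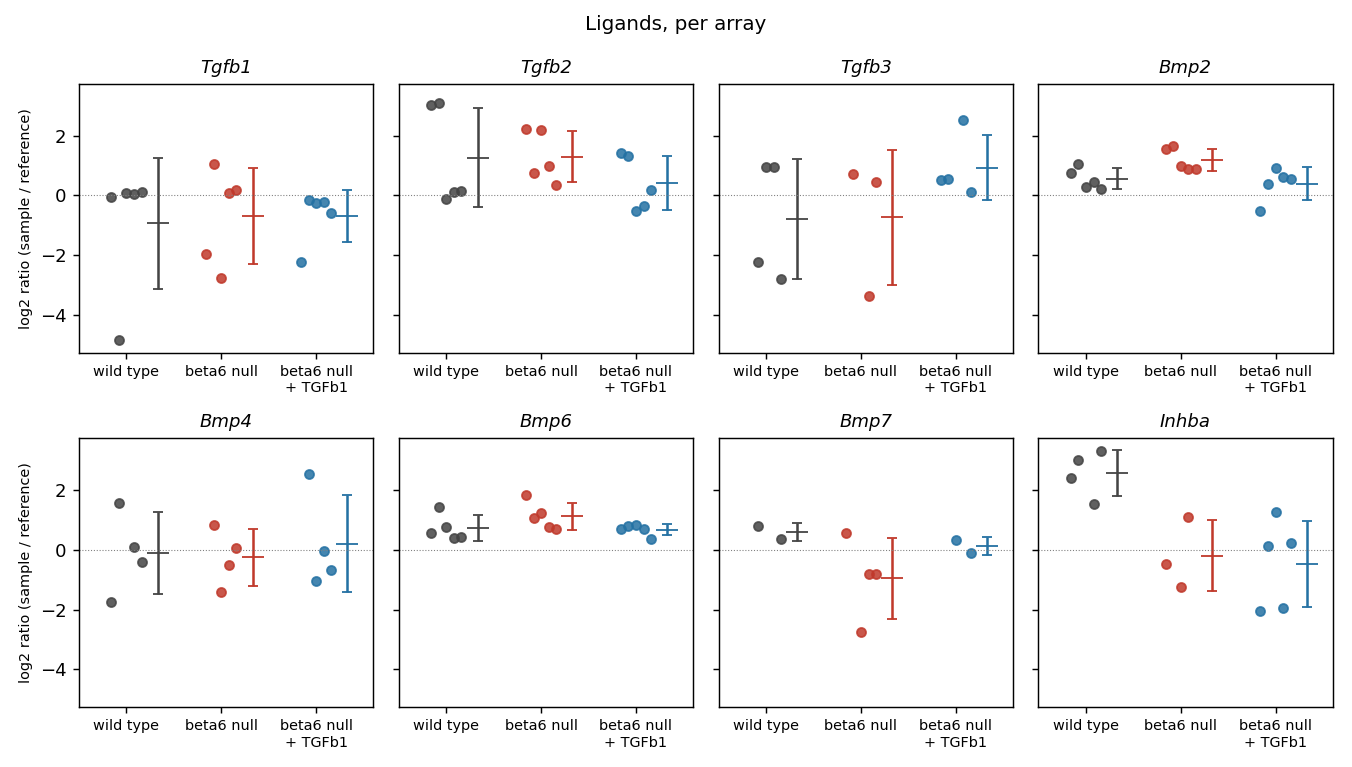
Log2 ratio of sample over reference (vertical axis, 1 scale) of the 8 ligands, 1 point per array and mean ± SD beside each group of up to 5 arrays. The wild type arrays of Inhba lie above all others, 1 wild type array of Tgfb1 lies at -4.84 far below the rest, and the TGFb1 group is no higher for Tgfb1 itself.

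Latency proteins and antagonists gave no call either. Ltbp3, a latent TGFb-binding protein, read -0.24, -1.57, -0.15, 0.42 and -0.15 in wild type, 0.854, -0.363, 1.404, 1.004 and 0.233 on the beta6 null arrays, and 0.37, 0.063, 0.81, -0.38 and 0.72 with TGFb1. Against wild type it stood 0.96 higher in beta6 null (SE 0.41, adjusted p = 0.374 by limma), with overlap and no call. Nog, the BMP antagonist noggin, read 1.22, 1.68, 0.82, 0.62 and 0.72 in wild type, 2.47, 1.72, 1.82, 0.82 and 0.92 on the beta6 null arrays, and 1.80, 1.24, 0.94, 0.74 and 0.78 with TGFb1. These overlap throughout (0.54 in beta6 null, SE 0.35, adjusted p = 0.573 by limma). Ltbp1 and Ltbp2, of the same family as Ltbp3, had differences between -0.43 and -0.14 in the 3 comparisons with SEs of 0.82 to 0.96. Fst, the activin antagonist follistatin, had values on 3, 3 and 2 arrays, with means of 0.03, 2.11 and 0.89, and was not tested.

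Of 81 other genes of the pathway, 58 were tested, and those that passed were Id genes, inhibitors of basic helix-loop-helix factors that BMP and TGFb Smads switch on. In beta6 null 1 of the 58 fell, Id3, and with TGFb1 against beta6 null 2 rose, Id3 and Id1. None passed between TGFb1 and wild type by limma, with 4 at an unadjusted p under 0.05 (6.9%, against 6.28% of all features). The shares called, 1.72% in beta6 null and 3.45% with TGFb1 against beta6 null, stand beside 0.949% and 0.708% of all features. By direction, 29 of the 58 lay below wild type in beta6 null and 29 above. With TGFb1 against beta6 null 32 lay below and 26 above. Cdkn1a went the opposite way to Id3, at 1.25 (SE 0.41, adjusted p = 0.222) and -1.31 (SE 0.41, adjusted p = 0.152), and did not pass by limma. Id3 read 2.46, -0.53, 1.99, 2.09 and 1.99 in wild type, -1.96, -1.77, -1.69, -0.24 and -0.030 on the beta6 null arrays, and 1.24, 1.60, 3.18, 2.67 and 1.99 with TGFb1. Its beta6 null arrays lay below all arrays with TGFb1, and wild type replicate 2 lay among them. Id3 fell by 2.74 on the log2 scale in beta6 null (SE 0.59, adjusted p = 0.0409 by limma) and rose by 3.27 with TGFb1 (SE 0.59, adjusted p = 0.0219). Id1 read 0.39 to 0.88 in wild type, -2.34 to -0.13 on the beta6 null arrays, and 0.48 to 1.81 with TGFb1, so that all its beta6 null arrays lay below all arrays of the other groups. Its fall in beta6 null, -1.57 (SE 0.39, adjusted p = 0.0842 by limma), did not pass, and its rise with TGFb1, 2.02 (SE 0.39, adjusted p = 0.0332), did. Id2 did not follow them in beta6 null: it read 0.65 ± 0.42 (SD, n = 5) in wild type, 1.22 ± 0.75 on the beta6 null arrays, and 2.30 ± 0.56 with TGFb1. Its difference with TGFb1 against beta6 null, 1.08 (SE 0.38), went the same way as theirs. Every array with TGFb1 lay above every wild type array, while 2.88% of all features did not overlap between those groups. Id2 passed in no comparison (adjusted p = 0.586, 0.200 and 0.651 by limma).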

How the data were processed

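The authors deposited 1 log ratio per probe and array, taken here as log2 and as sample over reference. No step by which they made these log2 ratios is given in the sources used here, and per the file headers only probes and samples are named. The medians of the deposited arrays lay within 0.05 of 0, which does not tell by what step they came there.

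Of 17225 probes, 30 control spots were left out. Probes with 1 gene symbol (13972) were named through RefSeq (GRCm38.p6, names only) by Entrez ID, arrays were median-centred, and probes of 1 gene were averaged. Features measured on 3 or more arrays per group were fitted with 3 group means over all 15 arrays in limma 3.58.1 (R 4.3.3, lmFit and eBayes), with Benjamini-Hochberg adjustment over 13273 features and a threshold of 0.05. SEs come from that fit and SDs from arrays. The steps were tested on simulated data.

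Whether arrays stand for separate animals is not in the labels: the spread behind the p-values may be technical, and the number of arrays limits the precision. Members and lists were chosen with earlier results of these data known. The rule for values in full took members that passed and the 2 of each class with the smallest p. Tgfb1, the ligand reconstituted by design, was given in full outside that rule. Ski, Tgfbi, Smurf1, Tgfbr2, Bambi, Id2, Cdkn1a, Mmp12 and Xist were added after their values were seen. The alternatives changed the arrays fitted, the centring and scaling, the filter, array weights, probes apart, and the title suffix or Xist as a covariate.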

Additional observations from a re-analysis of the deposited data

Results flagged for a closer look

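Of 97 groups of 4 or 5 values of the components, 11 held a value far from the others of its group by Dixon's Q test. About 1 group in 20 would do so if values were independent and normally distributed. The groups share the same arrays, which differ in spread, so that rate need not hold here. In wild type, replicate 2 stood apart at -4.84 for Tgfb1 (the nearest array at -0.056), at -2.88 for Ltbp1 (nearest 0.11) and at 2.46 for Eng (nearest 0.82), and replicate 4 at -3.21 for Tgfbr1 (nearest 0.34). In beta6 null, replicate 2 stood at -3.73 for Ltbp1 (nearest -0.38), and replicate 3 at 2.93 for Smad4 (nearest 0.54) and at 0.65 for Smurf1 (nearest -0.57). With TGFb1, replicate 1 stood at -2.21 for Tgfb1 (nearest -0.60), at 0.70 for Tgfbr2 (nearest -0.068) and at 0.55 for Acvrl1 (nearest -0.22), and replicate 5 at -0.36 for Smad2 (nearest -0.54).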

How the results depend on the processing

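The count of 3 components called in beta6 null against wild type was 0 with these 10 arrays alone, 1 (Skil) without the arrays numbered apart in their titles and 0 with Xist as covariate. It was 2 under quantile normalization, with equal spread and with the title suffix as a block, Klf10 losing its call in each, and 1 to 3 when 1 array was left out. The count of 2 with TGFb1 against beta6 null was 1 (Klf10) with these groups alone, without centring, with at least 2 arrays a group, with the title suffix as a block and without the arrays numbered apart. It was 0 under quantile normalization, with equal spread and with Xist, 4 with array weights (Tgfbi and Eng joining), and 1 to 3 when 1 array was left out. Against wild type it was 0 throughout. All 5 called differences of the components kept their sign in all 27 alternatives. With 2 groups alone the falls of Eng and Klf10 both had an adjusted p of 0.187, and without the arrays numbered apart 0.0763 and 0.0884. Over all features, the 126 calls in beta6 null became 41 with the groups alone, 76 (40 higher, 36 lower, in place of 48 and 78) under quantile normalization, 61 (30 and 31) with equal spread, 422 with array weights, 64 with the suffix block, 190 without the widest arrays, 78 without the arrays numbered apart and 0 with Xist (64 to 154 leaving out 1 array). The 94 calls with TGFb1 became 15 (8 higher, 7 lower, in place of 77 and 17), 11 (8 and 3), 620, 43, 321, 30 and 0 in the same order from quantile normalization on, 220 with values on all 15 arrays, and 23 to 318 leaving out 1 array. Signs turned only where nothing was called. In beta6 null, Acvr2a was -0.029 with array weights, -1.20 with Xist, and -0.198 to 0.474 leaving out 1 array. With TGFb1 against beta6 null, Inhba was -0.708 to 0.111 leaving out 1 array, and Nog 0.0899 with equal spread. Against wild type, Bmp2 was 0.0238 with equal spread, 0.126 with array weights and -0.294 to 0.0682 leaving out 1 array. Leaving out 1 array gave -0.0860 to 0.257 for Nog and -0.246 to 0.0107 for Smad2, which was 0.0107 without the widest arrays. The cause was not tested. No paired analysis was possible because the labels number no replicates across groups.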
